A study of Mus musculus with 10 samples.

Results

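The genes described here sense or break down nucleotides at the surface of microglia, the resident macrophages of the brain. They are 5 receptors for ATP, ADP or UDP (P2ry12, P2ry13, P2ry6, P2rx4 and P2rx7), the related receptor Gpr34, the adenosine receptor Adora3 and the ectonucleotidase Entpd1. They were chosen by name for this function, and all 8 were among the 24453 gene symbols of the deposited table. RNA was sequenced from microglia taken from the brains of untreated C57BL/6 mice by magnetic sorting. The 10 libraries fell into 4 groups. The aged group held 3 libraries from mice of 15 months, and the young group 3 libraries from mice of 10 weeks. The other groups came from mice of 3 months, with 2 libraries labelled Rab7 deltaMG and 2 labelled Rab7 control. Rab7 is a GTPase that acts on late endosomes. The series describes the deltaMG mice as null mutants without naming the promoter or Cre line behind the deletion.

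Damaged or active cells release ATP, which enzymes at the cell surface strip of phosphates in steps to ADP, AMP and adenosine. Microglia meet ATP with P2X ion channels, ADP and UDP with P2Y receptors coupled to G proteins, and adenosine with A3 and other adenosine receptors. In the brain P2Y12 is best known for steering microglial processes towards injury, P2Y6 for phagocytosis and P2X7 for release of interleukin-1 beta, while CD39, the product of Entpd1, removes ATP and ADP.

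The promoters of the most and the least abundant of these genes are shown here, because P2ry12 and P2ry13 are neighbours whose levels moved together below, whereas P2rx4 did not follow them. Each is the RefSeq window of 250 bases before to 50 bases after the annotated start in build GRCm38.p6, written 5′ to 3′ on the strand of the gene. The windows are chr3:59262936-59263235 on the minus strand for P2ry12, chr3:59210833-59211132 on the minus strand for P2ry13 and chr5:122707294-122707593 on the plus strand for P2rx4. Capitals mark AGGAAG, the core of the sequence that the macrophage factor PU.1 binds, a motif chosen after the windows had been read.
P2ry12: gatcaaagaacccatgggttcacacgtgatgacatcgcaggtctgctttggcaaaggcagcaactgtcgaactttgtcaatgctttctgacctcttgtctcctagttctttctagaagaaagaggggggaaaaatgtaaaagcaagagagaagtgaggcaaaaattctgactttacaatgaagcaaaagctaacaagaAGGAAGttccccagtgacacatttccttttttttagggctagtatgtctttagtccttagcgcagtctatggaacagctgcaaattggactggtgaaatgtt
P2ry13: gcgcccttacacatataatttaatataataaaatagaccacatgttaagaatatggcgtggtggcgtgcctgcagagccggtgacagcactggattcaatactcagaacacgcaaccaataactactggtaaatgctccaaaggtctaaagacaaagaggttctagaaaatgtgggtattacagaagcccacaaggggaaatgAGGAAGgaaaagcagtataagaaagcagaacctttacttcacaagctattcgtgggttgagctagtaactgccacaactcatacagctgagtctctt
P2rx4: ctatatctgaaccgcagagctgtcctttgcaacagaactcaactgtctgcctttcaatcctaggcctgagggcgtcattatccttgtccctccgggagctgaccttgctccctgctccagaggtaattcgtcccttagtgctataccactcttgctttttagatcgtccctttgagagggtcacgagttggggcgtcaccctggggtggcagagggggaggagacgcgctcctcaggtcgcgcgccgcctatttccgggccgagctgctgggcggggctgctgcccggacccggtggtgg

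The motif AGGAAG began at base -52 of the P2ry12 window and at base -47 of the P2ry13 window, counted from the RefSeq start. In GENCODE M21, used for gene positions below, P2ry12 reaches only to 59262871, so its whole window lies upstream of that gene. The position in P2ry12 therefore depends on the annotation chosen. The P2rx4 window held no match on either strand. The windows of P2ry12 and P2ry13 were each 42.3% G or C, with 4 and 6 CpG dinucleotides, and that of P2rx4 was 60.3% G or C with 18, beside medians of 52.7% and 7 over 32851 mouse promoters. RefSeq gave 8 windows for 6 of the genes, since P2rx7 and Entpd1 had more than 1 start, and P2ry6 and Gpr34 had no entry. Of these 8 windows, 5 held AGGAAG on either strand, against 35.4% of all promoters of the same length. They were those of P2ry12, P2ry13, Adora3 and 1 start each of P2rx7 and Entpd1. The other Entpd1 window had no match, 64% G or C and 23 CpG dinucleotides, although Entpd1 was called lower in aged libraries below. The windows printed above were picked with the results known, and a link between sequence and level was not tested. The longer motif GAGGAAGT, which contains AGGAAG, was in 2 of the 8 windows, those of Adora3 and of 1 P2rx7 start, and in 3.2% of all promoters. A match is a match of letters only and shows no binding.

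Values were in RPM, read numbers scaled to the size of each library, and the steps between low values gave 6098267 to 9907464 reads per library behind that scaling. Only 1284408 to 1855048 reads per library lay in the genes of the table, which summed to 187240 to 235465 RPM. Most of the scaling thus rests on reads outside the table. Tests were made with limma on log2(RPM + 1) over the 4151 genes that reached 10 RPM in at least 2 of 10 libraries, and a gene is called when its p, adjusted by Benjamini-Hochberg over all of them, is under 0.05. Fold changes on this scale understate the change of low genes. Whether replicates were separate animals is not in the labels, so the p-values measure only the spread between libraries, which may be technical. In whole-population RNA, fewer cells of a type and less RNA per cell cannot be told apart. Rab7 itself was at 72.2 and 79.4 RPM in the libraries labelled deltaMG, against 64.2 and 67.5 RPM in those labelled control, so it does not check these labels, and directions below rest on them. Xist was at 0.127 to 0.940 RPM in aged and at 1715 to 1771 RPM in young libraries, while 4 Y-linked genes summed to 35.7 to 48.7 RPM in aged and at most 0.288 RPM in young libraries. Age and sex therefore cannot be told apart in that comparison. The libraries labelled deltaMG and control each held both kinds of transcript, in unequal amounts. Xist was at 1171 and 1562 RPM labelled deltaMG, against 1410 and 924 RPM labelled control. The Y-linked genes summed to 20.3 and 9.11 RPM labelled deltaMG, against 19.3 and 25.8 RPM labelled control. The part of sex in that comparison was not tested. The 10 general microglia genes used for one of the scalings, Itgam and C1qb among them, summed to 2583 to 2960 RPM in aged, 2942 to 3258 RPM in young, 2901 to 3741 RPM in labelled deltaMG and 3861 to 4228 RPM in labelled control libraries. Of these 10, Fcer1g was called higher in aged against young and Tyrobp lower in labelled deltaMG against control.

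Per kilobase of annotated exon, the 8 genes kept a single order in all 10 libraries. P2ry12 had the highest mean over the libraries, 411 RPM per kb, followed by P2ry13 at 239, Gpr34 at 114 and Entpd1 at 37.8 RPM per kb. P2ry6 at 14.4, P2rx7 at 10.0, Adora3 at 4.41 and P2rx4 at 1.23 RPM per kb formed the lower end. P2ry12 and P2ry13 thus stood far above both ATP-gated channels in level per length. Together the 8 genes summed to 1532 RPM ± 190 in aged libraries and 2547 RPM ± 239 in young libraries (SD, n = 3 each). The sum was 2200 RPM ± 328 in the libraries labelled deltaMG and 2820 RPM ± 102 in those labelled control (SD, n = 2 each). P2ry12 made up 42.0% to 49.9% of the sum in aged, 47.3% to 52.4% in young, 42.4% to 44.8% in labelled deltaMG and 45.2% to 50.3% in labelled control libraries. Without P2ry12 the sum was 874, 851 and 782 RPM in aged, against 1392, 1183 and 1297 RPM in young libraries. It was then 1087 and 1402 RPM labelled deltaMG, against 1436 and 1506 RPM labelled control.

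**Figure D1:**
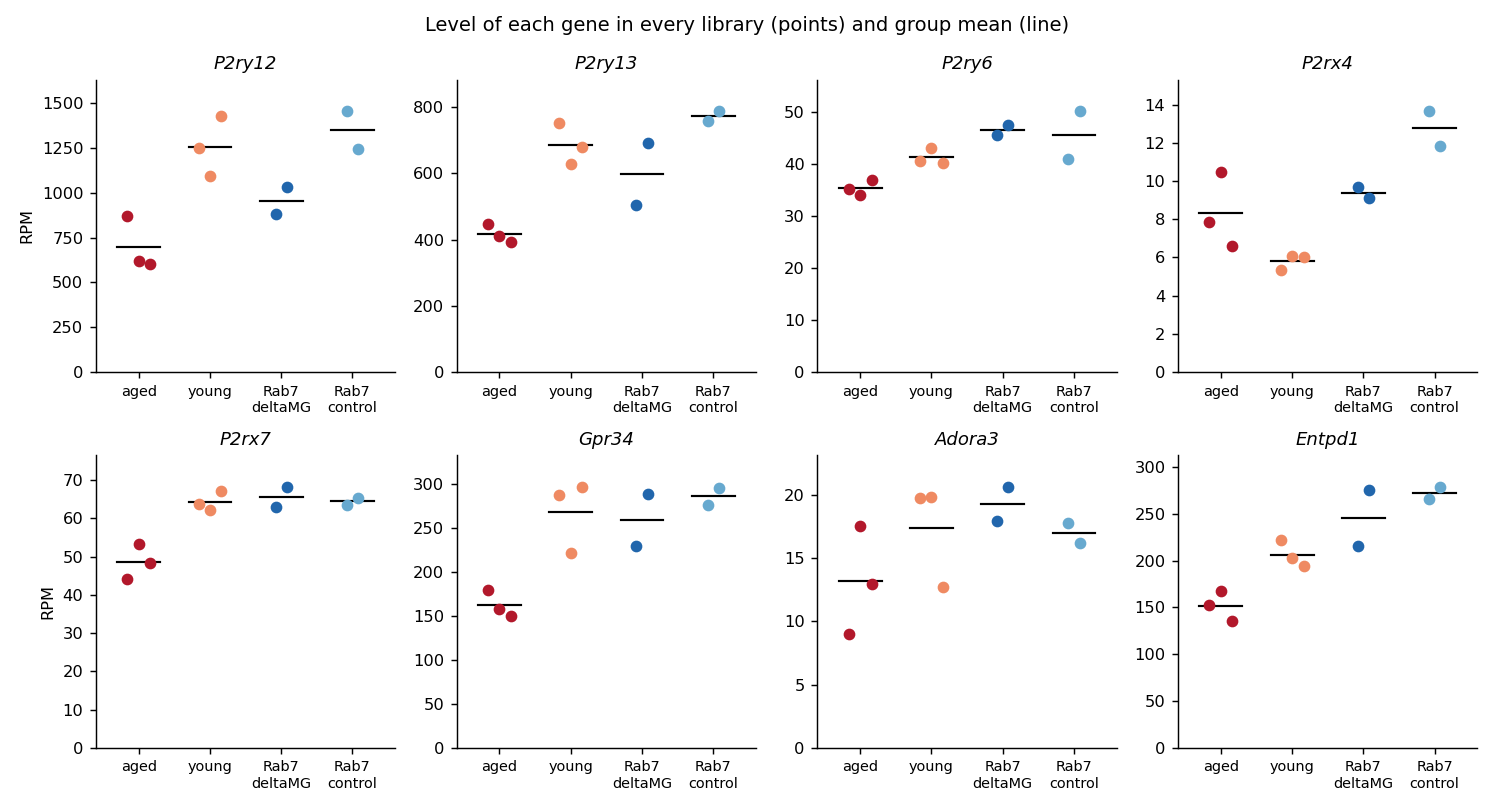
Each panel shows the RPM of a gene in every library (points, in replicate order from left to right within a group) and the group mean (line), on a linear axis that starts at 0. P2ry12, P2ry13, P2ry6, P2rx7, Gpr34 and Entpd1 lie lower in all 3 aged than in all 3 young libraries, P2rx4 lies higher, and the Adora3 groups overlap.

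In aged microglia, 4 of the 8 transcripts fell against young microglia, namely the ADP receptors P2ry12 and P2ry13, Gpr34 and Entpd1. Over all 4151 tested genes 2.99% were called lower in aged libraries. None of the 8 was called higher, against 3.16% of all genes. P2rx7, P2ry6, Adora3 and P2rx4 did not pass the test. Every aged library was below every young one for 6 of the 8 genes and for 15.5% of all tested genes. The reverse held for P2rx4 and for 8.41% of all tested genes. The median log2 fold change was -0.43 over the 8 genes and -0.05 over all tested genes.

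P2ry12 encodes the Gi-coupled ADP receptor that is also the platelet target of clopidogrel. It was at 871, 617 and 600.0 RPM in the aged libraries, against 1247, 1092 and 1429.6 RPM in the young libraries. Aged replicate 1 was the highest of its group and still lay below the lowest young library. P2ry12 was 1.82-fold lower in aged libraries (log2 fold change -0.86, SE 0.16, 95% confidence interval -1.21 to -0.52, limma adjusted p = 0.00645). Of the 4151 tested genes, 20 had a lower log2 fold change than P2ry12.

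P2ry13 encodes a further Gi-coupled receptor for ADP. Its aged libraries had 446, 411 and 392 RPM, against 752, 627 and 679.9 RPM in the young libraries. The aged libraries lay close together and all below the young ones. P2ry13 was 1.65-fold lower in aged libraries (log2 fold change -0.72, SE 0.13, limma adjusted p = 0.00645). P2ry12 (chromosome 3, 59216272 to 59262871, minus strand) and P2ry13 (chromosome 3, 59207892 to 59210882, minus strand) are neighbours, and both lie inside Med12l on the opposite strand in GENCODE M21 (GRCm38). P2ry12 shares 9 exonic bases with Med12l and P2ry13 none, and no strand setting is given in the sources used here. Med12l was at 22.1, 16.6 and 13.9 RPM in aged libraries, against 24.9, 22.1 and 28.05 RPM in young libraries. Its log2 fold change was -0.51 with a limma adjusted p of 0.103.

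P2ry6 (chromosome 7, 100937630 to 100974649, minus strand) encodes the receptor for UDP. It was at 35.2, 34.1 and 37.0 RPM in aged libraries, against 40.7, 43.1 and 40.2 RPM in young libraries. The ranges were apart but close, and the gene did not pass the test. On the log2 scale the difference was -0.22 (95% confidence interval -0.48 to 0.05, limma adjusted p = 0.345), an interval that runs from 0.717 to 1.03 times the level of young libraries.

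The ATP-gated channels took opposite signs. P2rx7 (chromosome 5, 122643911 to 122691432, plus strand), the channel opened by high ATP, was at 44.0, 53.2 and 48.4 RPM in aged libraries, against 63.8, 62.3 and 67.1 RPM in young libraries. All aged libraries lay below all young ones, but the gene missed the threshold. Its log2 fold change was -0.40 (95% confidence interval -0.66 to -0.15) with a limma adjusted p of 0.0562. It passed without aged replicate 2 (adjusted p = 0.0324) and with library weights (adjusted p = 0.0257), and at a threshold of 0.10. It did not pass in the other alternatives run.

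P2rx4 (chromosome 5, 122707544 to 122729738, plus strand) encodes the channel that responds to lower ATP and sits largely in lysosomes. It was at 7.83, 10.497 and 6.60 RPM in aged libraries, against 5.36, 6.07 and 6.05 RPM in young libraries. Here each aged library lay above each young one, the reverse of P2rx7. The log2 fold change of 0.43 did not pass the test (95% confidence interval -0.02 to 0.88, limma adjusted p = 0.256). These values rest on 34.0 to 104 reads per library, and P2rx4 met the minimum of 10 RPM only in aged replicate 2 and in the libraries labelled control.

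Gpr34 (X chromosome, 13632089 to 13640858, plus strand) encodes a receptor for lysophosphatidylserine that belongs to the P2Y12-like family by sequence. It had 179.7, 157 and 150.2 RPM in the aged libraries, against 287, 222 and 297 RPM in the young libraries. Both groups spread, young replicate 2 being the lowest young library, and they did not overlap. Gpr34 was 1.64-fold lower in aged libraries (log2 fold change -0.71, SE 0.14, limma adjusted p = 0.0081). It lies inside Cask, on the opposite strand and without a shared exonic base. The log2 fold change of Cask was 0.04.

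Adora3 (chromosome 3, 105870858 to 105908926, plus strand) encodes the Gi-coupled A3 adenosine receptor. Its values were 8.996, 17.5 and 12.99 RPM in aged libraries, against 19.7, 19.8 and 12.7 RPM in young libraries. The groups overlapped, since young replicate 3 was below aged replicates 2 and 3. Its log2 fold change of -0.40 did not pass the test (95% confidence interval -0.87 to 0.08, limma adjusted p = 0.335). Adora3 shares 779 exonic bases with Tmigd3 on the same strand, and its values corresponded to whole reads, within 0.05 of a read, in 1 of 10 libraries, where the other 7 genes did so in all 10. Tmigd3 was at 6.98, 1.33 and 5.30 RPM in aged libraries, against 2.47, 0.497 and 1.71 RPM in young libraries. The sum of the pair was 15.98, 18.9 and 18.3 RPM in aged libraries, against 22.2, 20.3 and 14.4 RPM in young libraries, and its log2 fold change was -0.08 (limma adjusted p = 0.853). That fit was chosen with the Adora3 values in view. Tmigd3 was highest in aged replicates 1 and 3, where Adora3 was at 8.996 and 12.99 RPM. In young replicate 3 Adora3 was at 12.7 RPM beside a Tmigd3 of 1.71 RPM. The part of shared reads in the Adora3 values was not tested.

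Entpd1 (chromosome 19, 40612366 to 40741602, plus strand) encodes CD39, which converts ATP and ADP to AMP. It was at 152, 167 and 135 RPM in aged libraries, against 222, 203 and 194 RPM in young libraries. Every aged library lay below every young one. The level was 1.36-fold lower, with a log2 fold change of -0.45 (95% confidence interval -0.71 to -0.18) and a limma adjusted p of 0.0496, just under the threshold. The call held in 3 of the 10 fits that left out a library, and was lost without aged replicate 1 or 3, any young replicate or either library labelled control (adjusted p = 0.0777 to 0.183). In the other alternatives its adjusted p ranged from 0.0272 to 0.202, with the log2 fold change between -0.45 and -0.34.

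**Figure D2:**
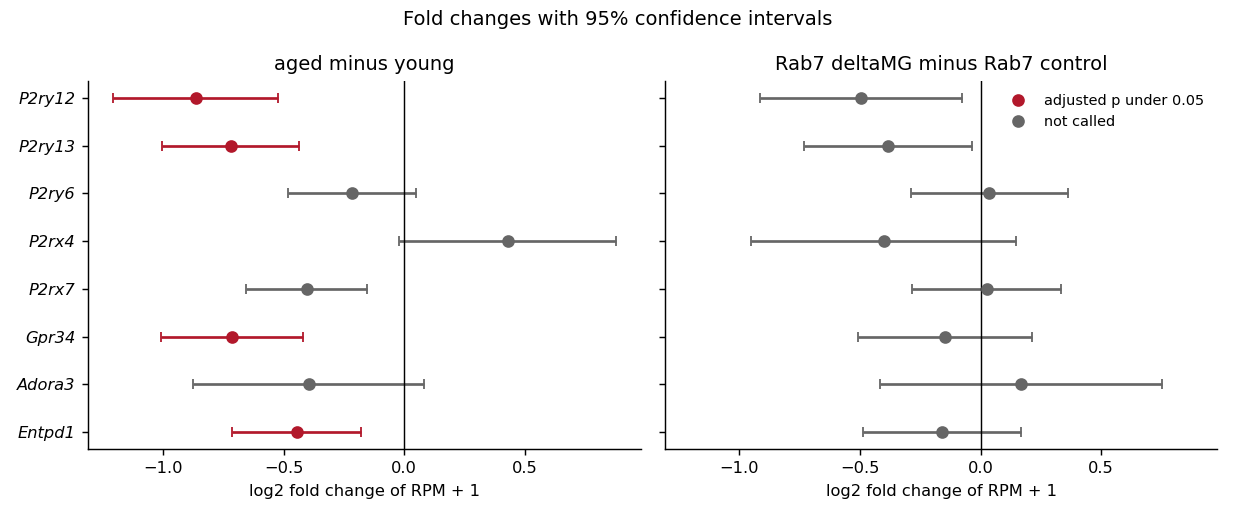
Log2 fold changes of RPM + 1 (points) with 95% confidence intervals (bars) are shown for both comparisons on the same axis, in red where the limma adjusted p was under 0.05. In aged against young libraries P2ry12, P2ry13, Gpr34 and Entpd1 are red, while in the libraries labelled deltaMG against control none is.

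P2ry12, P2ry13 and Gpr34 were called in each of the 10 fits that left out a library, with log2 fold changes of -1.04 to -0.77 for P2ry12, -0.78 to -0.65 for P2ry13 and -0.85 to -0.64 for Gpr34. All 4 calls were lost with no filter, where 18022 genes were tested (limma adjusted p = 0.0596 to 0.162). Markers of other cells were compared over the same libraries. The 11 neutrophil markers summed to 965 to 4301 RPM in aged and 559 to 1425 RPM in young libraries, and in ranges that likewise overlapped the 6 monocyte markers to 147 to 696 RPM in aged and 75.1 to 193 RPM in young libraries. Of these, 11 of 11 neutrophil markers and 5 of 5 tested monocyte markers had a positive log2 fold change, Cxcr2, Ccr2, Itga4 and Fn1 were called higher, and no marker of either list was at 0 in all libraries of a group. With a neutrophil score as a term of the model, the log2 fold changes were -0.75 for P2ry12, -0.63 for P2ry13 and -0.57 for Gpr34, and these genes were called (limma adjusted p = 0.0105, 0.0154 and 0.0236), as were 1.54% of all tested genes in that direction. In that fit Entpd1 was at -0.34 (limma adjusted p = 0.202). The part of monocytes in the result was not tested. Platelets also carry P2Y12, and the 6 platelet markers summed to 2.52 to 3.92 RPM in aged and 3.78 to 4.46 RPM in young libraries, with Itga2b, Ppbp and Gp6 at 0 in all aged and Itga2b and Gp6 at 0 in all young libraries. They summed to 6.21 to 8.10 RPM in the libraries labelled deltaMG, where Itga2b, Ppbp and Gp6 were at 0, and 2.08 to 4.37 RPM in those labelled control, ranges that did not overlap.

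Border macrophage markers, a list of 6 genes, summed to 31.1 to 83.4 RPM in aged, 26.2 to 28.5 RPM in young, 45.8 to 47.2 RPM in labelled deltaMG and 37.9 to 45.0 RPM in labelled control libraries. These ranges were apart in both comparisons. Of the 2 tested, F13a1 was called higher in aged libraries (log2 fold change 1.78, limma adjusted p = 0.0123) and Mrc1 was not called. Neither was called in labelled deltaMG against control. The sums of the 5 astrocyte markers were 25.8 to 38.1 RPM in aged, 35.8 to 46.6 RPM in young, 33.9 to 40.6 RPM in labelled deltaMG and 48.9 to 55.0 RPM in labelled control libraries. Of these 5 only 1, Slc1a3, reached the minimum for the test. Aldh1l1 was at 0 in all aged libraries, and Gfap in all young and all labelled deltaMG libraries. The part of both lists in the results for the 8 genes was not tested. Markers of oligodendrocytes, neurons, endothelial cells, mural cells, T cells and B cells each summed to at most 11.3 RPM in any library.

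Scaling by the general microglia genes left the ageing comparison nearly as it was, with log2 fold changes of -0.85 for P2ry12, -0.71 for P2ry13, -0.70 for Gpr34 and -0.43 for Entpd1, all called, against 3.35% of all tested genes called lower. Quantile normalisation gave -0.50 for P2ry12 with a limma adjusted p of 0.0898, the only scaling under which its call was lost. P2ry13 at -0.54 and Gpr34 at -0.59 were called there (adjusted p = 0.00369 and 0.0172).

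In the libraries labelled Rab7 deltaMG, none of the 8 genes passed the test against those labelled Rab7 control. Over all tested genes 2.58% were called lower and 1.2% higher by limma. At an unadjusted p under 0.05 the count was 2 of the 8, P2ry12 and P2ry13, against 18.8% of all tested genes. The median log2 fold change was -0.15 over the 8 genes and -0.02 over all tested genes. Ranges did not overlap, with deltaMG lower, for P2ry12, P2ry13 and P2rx4, 3 of the 8 genes, against 26.6% of all tested genes. P2rx4 reached the minimum of 10 RPM in both control libraries and in neither deltaMG library, so the filter favours this direction for it. With deltaMG higher this held for Adora3, 1 of the 8, against 25.2% of all tested genes. Such gaps were therefore common between these pairs of libraries.

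P2ry12 had 881 and 1030.3 RPM in the libraries labelled deltaMG, against 1455 and 1242 RPM in those labelled control. Both deltaMG values lay below both control values. Its log2 fold change was -0.50 with a 95% confidence interval of -0.91 to -0.08, an unadjusted p of 0.0232 and a limma adjusted p of 0.179. It passed only when these 4 libraries were fitted alone (adjusted p = 0.0483). For P2ry13, with 505 and 692 RPM labelled deltaMG, against 757 and 788 RPM labelled control, the log2 fold change was -0.38 (95% confidence interval -0.73 to -0.04, limma adjusted p = 0.214). The deltaMG replicates differed more from each other than replicate 2 did from the lower control.

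P2rx4 was at 9.68 and 9.11 RPM in the libraries labelled deltaMG, against 13.7 and 11.8 RPM in those labelled control. The groups were apart, in the direction that the filter favours for this gene. The log2 fold change of -0.40 had a 95% confidence interval of -0.95 to 0.15 (limma adjusted p = 0.441). P2rx7 was at 63.0 and 68.3 RPM labelled deltaMG, against 63.5 and 65.4 RPM labelled control, and the deltaMG values enclosed the control values. For P2rx7 the log2 fold change was 0.02 with a 95% confidence interval of -0.28 to 0.33, so changes beyond 1.26-fold in either direction lie outside it.

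P2ry6 had 45.6 and 47.4 RPM in the libraries labelled deltaMG, against 41.0 and 50.2 RPM in those labelled control, and a log2 fold change of 0.04 (95% confidence interval -0.29 to 0.36). Gpr34 had 229.7 and 289 RPM labelled deltaMG, against 277 and 295 RPM labelled control, with a log2 fold change of -0.15 (95% confidence interval -0.51 to 0.21). Entpd1 was at 216 and 275 RPM labelled deltaMG, against 266 and 279 RPM labelled control, with a log2 fold change of -0.16 (95% confidence interval -0.49 to 0.17). In each of these 3 genes the groups overlapped. Adora3 was at 17.9 and 20.6 RPM in the libraries labelled deltaMG, against 17.8 and 16.2 RPM in those labelled control, ranges that were apart but nearly touched. Its log2 fold change was 0.17 (95% confidence interval -0.42 to 0.75), and 0.13 for the sum with Tmigd3.

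The general microglia genes summed higher in the libraries labelled control, as given above, and scaling by them put the median log2 fold change of all tested genes at 0.36. Under it P2ry13 was at 0.014, Gpr34 at 0.25 and Entpd1 at 0.24, signs opposite to those of the deposited scaling, and P2ry12 was at -0.10. All 4 values were below the shifted median, and none of the 8 was called. Neutrophil markers summed to 1186 to 1822 RPM in the libraries labelled deltaMG and 460 to 694 RPM in those labelled control, and monocyte markers to 158 to 209.7 RPM in the libraries labelled deltaMG and 52.7 to 90.3 RPM in those labelled control. With the neutrophil score in the model, where the median of all tested genes was -0.13, Gpr34 was at 0.074 and Entpd1 at 0.0091. Gpr34 and Entpd1 thus had no single direction in this comparison, whereas P2ry13 turned only under the scaling by general microglia genes.

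**Figure D3:**
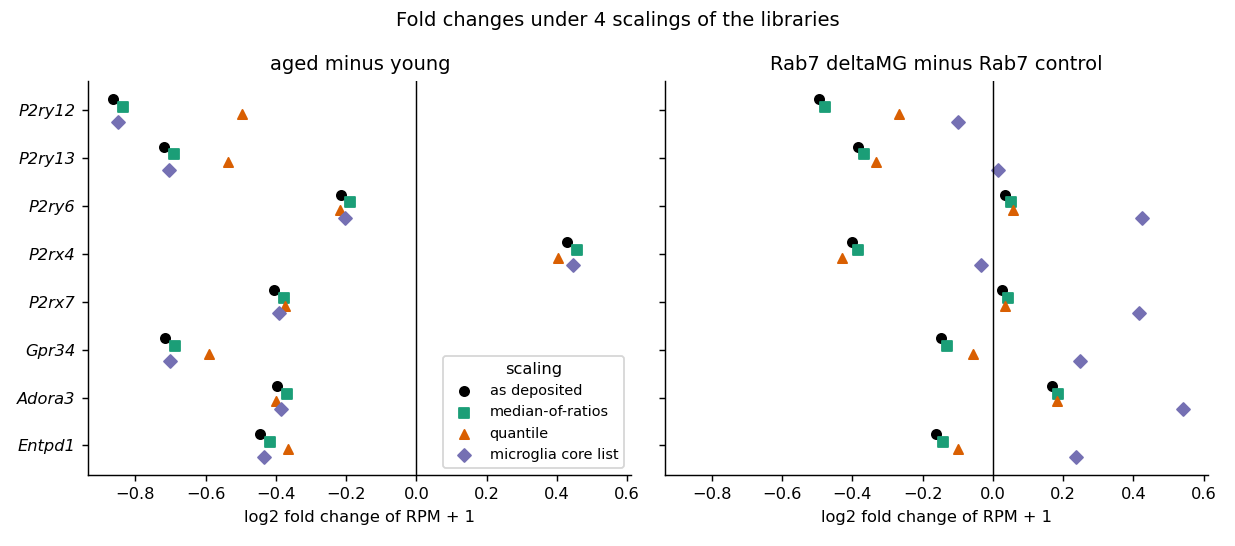
Log2 fold changes of RPM + 1 are shown for each gene under 4 scalings of the libraries, marked by symbol. In aged against young libraries each gene keeps its sign, whereas in the libraries labelled deltaMG against control the scaling by general microglia genes moves each gene to the right and P2ry13, Gpr34 and Entpd1 across 0.

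Whether the genes moved differently in these comparisons was tested as the difference of the log2 fold changes, deltaMG minus control less aged minus young. None of the 8 was called, against 4.79% of all tested genes. P2rx4, Gpr34 and P2rx7, 3 of the 8, had an unadjusted p under 0.05, against 18.3% of all tested genes. The differences were -0.83 for P2rx4 (95% confidence interval -1.54 to -0.12, limma adjusted p = 0.184), and 0.57 for Gpr34 (95% confidence interval 0.10 to 1.03, limma adjusted p = 0.169). For P2rx7 the difference was 0.43 with a limma adjusted p of 0.231. Scaling by the general microglia genes gave 4 calls, P2ry13, P2rx7, Gpr34 and Entpd1 (adjusted p = 0.00818 to 0.0247), where 17.9% of all tested genes were called. The neutrophil covariate gave 1, Gpr34 (adjusted p = 0.0335), where 11.3% of all tested genes were called, a share close to 1 of 8.

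By group mean, low to high, P2ry12 was at 696 RPM in aged libraries, 956 RPM in those labelled deltaMG, 1256 RPM in young and 1349 RPM in those labelled control. Neighbours in this order were apart except young and labelled control, whose ranges overlapped. P2ry13 had the same order of groups, and there only the labelled deltaMG and young ranges overlapped. For P2rx7 the aged group at a mean of 48.5 RPM was apart from the labelled deltaMG, young and labelled control groups, which lay together at 64.4 to 65.6 RPM. Aged was likewise the lowest group and apart from the next for Gpr34, Entpd1 and P2ry6, and the lowest but overlapping for Adora3. P2rx4 alone had its lowest mean in the young group, 5.82 RPM, and its highest in the libraries labelled control, 12.8 RPM. Across the pairs of groups, experiment and group cannot be told apart.

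Ratios of RPM within a library do not depend on its scaling. The log2 ratios tested were computed on RPM + 1, so they can depend on it where a gene is low. P2ry12 over P2ry13 was 1.95, 1.5005 and 1.53 in aged libraries, against 1.66, 1.74 and 2.10 in young libraries. These ranges overlapped, and the mean log2 ratio differed by -0.15 (exact two-sided permutation p = 0.50). P2ry12 over Entpd1 was 5.71, 3.69 and 4.43 in aged libraries, against 5.61, 5.37 and 7.36 in young libraries, a mean log2 difference of -0.42 with overlapping ranges (exact permutation p = 0.30).

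P2ry12 over P2rx4 was 111, 58.7 and 90.9 in aged libraries, against 233, 179.9 and 236 in young libraries. Each aged ratio lay below each young one, and the mean log2 ratio, computed on RPM + 1, was 1.29 lower in aged libraries with an exact two-sided permutation p of 0.10, the smallest that 3 against 3 libraries can give. In the libraries labelled deltaMG this ratio was 91.0 and 113, against 106 and 105 in those labelled control, where the deltaMG values enclosed the control values. P2ry12 over Entpd1 was 4.08 and 3.74 labelled deltaMG, against 5.46 and 4.45 labelled control, apart at the smallest possible p of 0.3333, by an exact permutation test. Over the 6 ratio comparisons the lowest adjusted p was 0.60, so none passed.

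**Figure D4:**
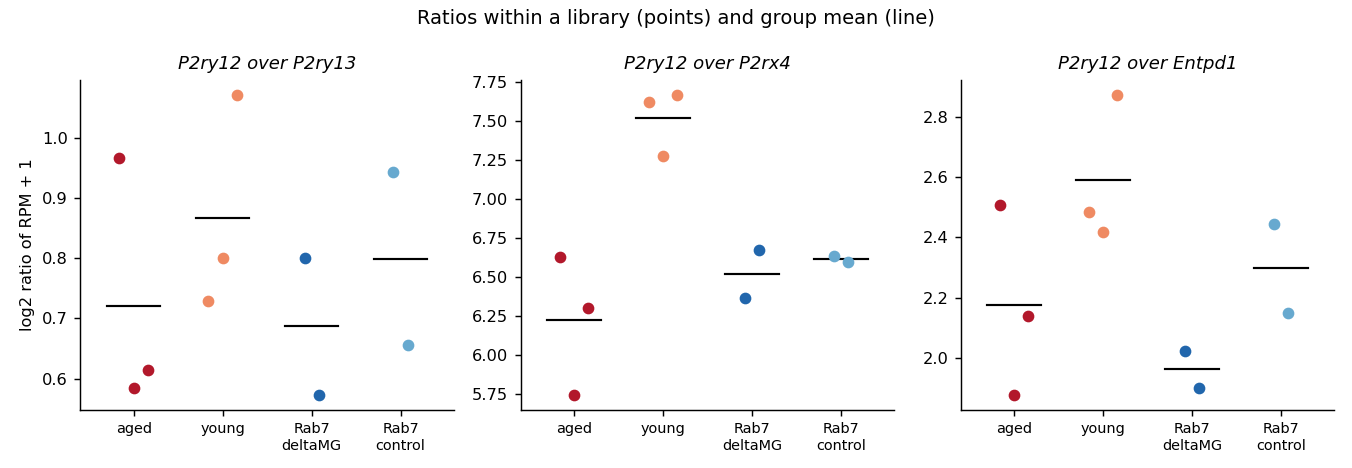
Log2 ratios of P2ry12 to 3 other genes, on RPM + 1, are shown per library (points) with group means (lines), each panel on its own vertical axis, which does not start at 0. Only P2ry12 over P2rx4 separates the 3 aged from the 3 young libraries, with the aged lower.

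The nearest profiles over the 10 libraries, by the root mean square difference of centred log2(RPM + 1) values, were found for each gene among all tested genes. The profile of P2ry12 was nearest to P2ry13 at 0.17, then to Lgmn at 0.17 and Gpr34 at 0.18, where its own root mean square spread was 0.43. P2ry13 had Rnase4 at 0.11, Gpr34 at 0.11 and 4931406C07Rik at 0.11. For Gpr34 they were P2ry13 at 0.11, Etv5 at 0.15 and Mylip at 0.15. P2ry13 and Gpr34 were thus among the 3 nearest to P2ry12, but P2ry12 itself ranked 24 in nearness to P2ry13 and 22 to Gpr34. Entpd1 was at 0.18 from P2ry13 and 0.19 from Gpr34. In nearness to P2ry12, Entpd1 ranked 217, P2rx7 332, P2ry6 830, Adora3 2591 and P2rx4 3389. Entpd1 had Scarb2 at 0.13 and Sirpa at 0.14 among its nearest. P2rx7 had Lyn at 0.05, then Sft2d2 and Nisch at 0.09 each, and P2ry6 had Lgals8, Rbm47 and Gtf2a1 at 0.07 to 0.08. P2rx4 had 2510009E07Rik at 0.16, Fam126b at 0.18 and Sgpl1 at 0.19, and Adora3 had Sipa1, Smo and Wdr81 at 0.10 to 0.11. These values describe the libraries, which share groups, and carry no p.

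The other receptors of the family were near or at the floor. None of the 5 other P2Y receptors, 5 other P2X channels and 3 other adenosine receptors in the table reached 10 RPM in any library. P2ry2, a receptor for ATP and UTP, had the highest mean of these P2Y receptors, 0.676 RPM, and P2ry1, a Gq-coupled ADP receptor, had the highest single value, 2.16 RPM. P2rx1 had the highest mean of the other P2X channels, 1.14 RPM, with 0.783, 0.505 and 0.635 RPM in aged libraries, against 1.73, 1.97 and 1.58 RPM in young libraries. P2ry4 and P2rx2 had no read in any library, and Adora2a, the receptor through which microglial processes retract, reached at most 0.508 RPM.

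Adora1, the Gi-coupled A1 receptor, stood apart in the looser test of 10800 genes that reached 1 RPM in 2 libraries. It was at 0.358 and 0.579 RPM in the libraries labelled deltaMG, against 3.71 and 3.78 RPM in those labelled control, about 3 and 4 reads against 25 and 26.8. It was 3.24-fold lower on the log2(RPM + 1) scale, with a limma adjusted p of 0.00949. Aged libraries had 1.10, 2.32 and 1.02 RPM, against 0.946, 0.656 and 0.432 RPM in young libraries, so the libraries labelled control were the highest of all. Of the 29 other receptors and ectonucleotidases, 14 were tested at this minimum, and 4 were called in the libraries labelled deltaMG against control and 1 in aged against young. Over all genes tested so, 1.69% and 3.44% were called.

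Of 16 other ectonucleotidases, only Enpp2 reached the minimum of 10 RPM for the first test. Enpp2 encodes autotaxin, which hydrolyses lysophosphatidylcholine as well as nucleotides. It was at 12.2 and 32.5 RPM in the libraries labelled deltaMG, against 1.63 and 0.705 RPM in those labelled control, with 35.6, 65.4 and 32.3 RPM in aged and 19.4, 39.4 and 60.6 RPM in young libraries. The log2 fold change of labelled deltaMG over control was 3.31 with a limma adjusted p of 0.00154, and that of aged over young was 0.22 (adjusted p = 0.807). The choroid plexus also makes this enzyme, and 5 of its markers, a list chosen after these values were seen, summed to 29.2 to 69.6 RPM in labelled deltaMG, 5.80 to 7.19 RPM in labelled control, 69.6 to 142 RPM in aged and 35.0 to 124 RPM in young libraries. Folr1 and Clic6 were at 0 in both control libraries, and the part of that tissue in the result was not tested.

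The other calls at the minimum of 1 RPM were in Bst1 and Acpp. Bst1 encodes an ADP-ribosyl cyclase found on myeloid cells. It was at 3.29, 3.43 and 6.60 RPM in aged libraries, against 1.10, 0.984 and 1.15 RPM in young libraries (2.53-fold higher, limma adjusted p = 0.0100). In the libraries labelled deltaMG it was at 4.18 and 2.75 RPM, against 0.594 and 0.564 RPM in those labelled control (2.79-fold higher, limma adjusted p = 0.0293). Neutrophil markers, given above, were higher in the same groups, and their part in Bst1 was not tested. Acpp, a phosphatase that produces adenosine from AMP, had 6.45 and 4.77 RPM labelled deltaMG, against 0.892 and 0.987 RPM labelled control (3.38-fold higher, limma adjusted p = 0.0229). Nt5e, which encodes CD73, the main enzyme from AMP to adenosine, reached at most 2.99 RPM.

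**Figure D5:**
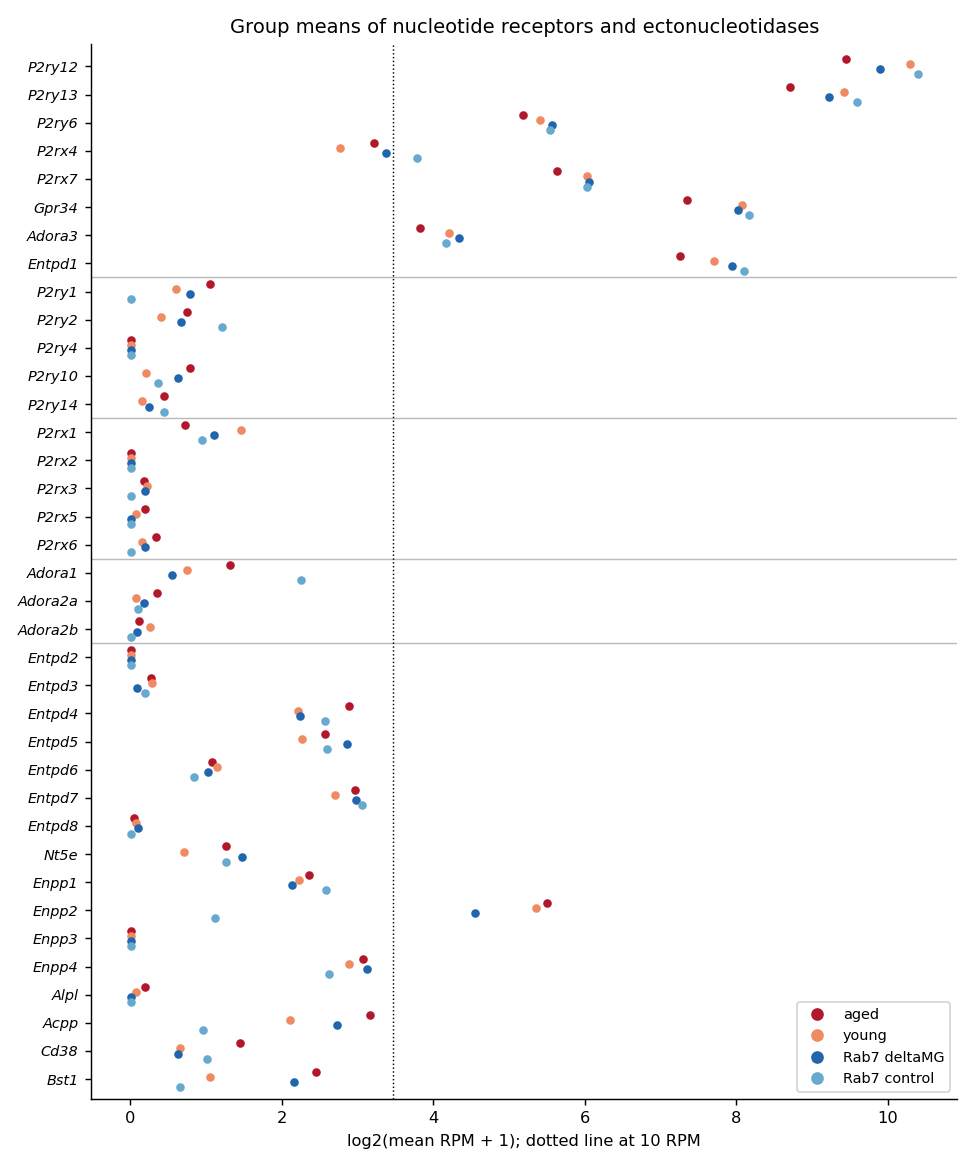
Group means are shown as log2(mean RPM + 1) for the 8 genes (top block) and for the other P2Y receptors, P2X channels, adenosine receptors and ectonucleotidases (blocks below), with a dotted line at 10 RPM. Apart from P2rx4 the 8 genes lie right of the line in every group, and among the others only Enpp2 does, in all groups except Rab7 control.

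Of the genes that act before and after these receptors few were called. Of 9 genes of adenosine uptake and metabolism 2 were tested, Slc29a3 and Pnp, and neither was called in either comparison. Of 9 ATP release genes 3 were tested and none was called, with Lrrc8a, a subunit of volume-regulated anion channels, at a log2 fold change of -0.39 in aged libraries (limma adjusted p = 0.135). Of 18 genes of Gi signalling and process movement 16 were tested and none was called, with median log2 fold changes of -0.09 in aged and 0.03 in labelled deltaMG libraries. At an unadjusted p under 0.05 these lists held 3 Gi genes in aged and 2 in labelled deltaMG libraries, and 1 ATP release gene, Lrrc8a, in aged libraries. Over all tested genes 21.5% were under that p in aged against young and 18.8% in labelled deltaMG against control. Of 12 genes of Gq and calcium signalling 8 were tested and none was called, 2 being under an unadjusted p of 0.05 in aged libraries. Abhd12, which degrades lysophosphatidylserine, was the only tested gene of the 5 that make, break or sense that lipid, at -0.26 in aged libraries (limma adjusted p = 0.331). At the same loci Med12l, Cask and Fchsd2 were tested and not called in either comparison. At an unadjusted p under 0.05 this list held 2 of the 3 in aged libraries, Med12l and Fchsd2, and 1, Med12l, in labelled deltaMG libraries. The log2 fold change of Med12l in labelled deltaMG against control was -0.48 (95% confidence interval -0.94 to -0.02, limma adjusted p = 0.240), with ranges apart.

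Downstream of P2X7, 7 of 10 listed genes were tested, and Il1b, which encodes interleukin-1 beta, was called in both comparisons. It was at 103, 64.9 and 142 RPM in aged libraries, against 35.0, 52.3 and 25.5 RPM in young libraries, with a log2 fold change of 1.43 (limma adjusted p = 0.0081). In the libraries labelled deltaMG it had 117 and 83.2 RPM, against 34.9 and 24.7 RPM in those labelled control, with a log2 fold change of 1.71 (limma adjusted p = 0.00875). Every aged and every deltaMG value lay above its comparison group, as did the neutrophil sums of the labelled deltaMG libraries, and neutrophils also make Il1b, so their part was not tested. The other 6 tested genes, among them Nek7 and Txnip, were not called.

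Other genes by which homeostatic microglia are known were counted in the same way. Of 21 such genes outside the 8, 19 were tested, all 19 had a negative log2 fold change in aged libraries and 12 were called lower, against 2.99% of all tested genes, among them Cx3cr1 at -0.63, Tmem119 at -0.53, Sall1 at -0.54 and Golm1 at -0.78. The other 7 did not pass the test. The median of the 19 was -0.53, beside -0.43 for the 8 genes and -0.05 for all tested genes. In the libraries labelled deltaMG their median was -0.03, none was called lower, and genes called higher included Cx3cr1 at 1.41 and Fat3 at 0.66. Earlier results of these data were known when this list was drawn up, so it is no independent evidence of its direction.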

How the data were processed

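The authors deposited a single table of normalised values for 10 libraries, and no per-sample column of it was left out. Per the labels' protocols, RNA was amplified with the Ovation kit and sequenced as Ion Xpress libraries. The submitters' processing notes name GRCm38, mm10 and FastQC. The aligner, counter, annotation, normalisation and strand setting were not given in any source used here, so reads of overlapping genes may be shared. The deposited values were read as RPM because most low values are multiples of 1 step per library above a constant of 0.0001. Among values worth at most 500 reads, between 94.2% and 94.6% in each library lay within 0.05 of a whole read, too few for a count test.

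Genes that reached 10 RPM in 2 or more libraries were tested on log2(RPM + 1) with limma 3.58.1 in R 4.3.3, with all 4 groups sharing 1 estimate of the spread (6 residual degrees of freedom). Ratios were compared by exact permutation with scipy 1.17.1, and figures were drawn with matplotlib 3.10.9. A planned test of the sum of the 8 genes was left out, since the genes were chosen together. Promoters came from RefSeq and gene positions and exon lengths from GENCODE M21. The members and lists were chosen with earlier results of these data known. Names were drawn from the 8 genes, from each list the called genes and up to 3 with the highest mean, and 3 nearest profiles per gene. A few genes that this rule names are not reported here. Other genes named (Tmigd3, Nt5e, Acpp, Bst1, P2ry4, P2rx2, the choroid plexus list) were chosen after their values were seen. The fit was tested on simulated data. Alternatives covered scaling, filter, pseudocount, samples in the fit, replicate block, weights, variance trend, a neutrophil covariate, threshold and leaving out each library. The sum of Adora3 and Tmigd3 was added after the data were seen.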

Additional observations from a re-analysis of the deposited data

How the results depend on the processing

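Deviations from the group means were compared between same-numbered libraries (r = -0.14, -0.24 and -0.39 for aged with young, 0.12 for the only 2 pairs of deltaMG with control). Centring on groups of 2 or 3 libraries constrains these values, so they cannot decide whether the numbers pair the libraries. With the replicate block 66 genes were called in aged against young (255 without it), 69 in labelled deltaMG against control (157) and 102 in the difference of effects (199). Of the 4 genes called lower in aged libraries, P2ry12, P2ry13 and Gpr34 stayed called under the replicate block (limma adjusted p = 0.0411, 0.0385 and 0.0385).

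For aged against young the number of genes called was 119 with no filter, 121 with own groups only, 141 with the neutrophil covariate, 445 at an adjusted p under 0.10 and 96 to 422 when a library was left out. For labelled deltaMG against control it was 1044 with scaling to general microglia genes, 86 with no filter, 510 with own groups only, 357 with array weights, 287 at an adjusted p under 0.10 and 25 to 317 when a library was left out. For the difference of effects it was 741 with that scaling, 101 with no filter, 344 with array weights, 467 with the neutrophil covariate, 348 at an adjusted p under 0.10 and 71 to 264 when a library was left out. Scaling to general microglia genes gave 979 genes higher and 65 lower in labelled deltaMG against control (50 and 107 with the deposited scaling) and 664 and 77 in the difference of effects (88 and 111). Median-of-ratios rescaling gave 217 higher and 128 lower in aged against young (131 and 124). The difference of effects could not be fitted with own groups only.

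Of the 8 genes, 2 were called in aged libraries with quantile normalisation and 0 with no filter, which tested 18022 genes, and 3 to 5 when a library was left out. In labelled deltaMG against control 1 was called with own groups only. In the difference of effects 4 were called with the general microglia scaling and 1 with the neutrophil covariate. The sign turned in labelled deltaMG against control for Entpd1 (0.24 with the microglia scaling, 0.0091 with the neutrophil covariate and -0.33 to 0.014 when a library was left out), for Gpr34 (0.25, 0.074 and -0.31 to 0.016 in the same settings) and for P2ry13 (0.014 with the microglia scaling). It also turned for P2rx7 (-0.033 to 0.082) and P2ry6 (-0.11 to 0.18) when a library was left out, turning without deltaMG replicate 2 and control replicate 1. The deltaMG minus control difference in the log2 ratio of P2ry12 to P2ry13 was 0.0015 without deltaMG replicate 2 and 0.031 without control replicate 1, within a range of -0.26 to 0.031, and the same difference for P2ry12 to P2rx4 was 0.057 without deltaMG replicate 1, within -0.25 to 0.057. The causes were not tested. When an arm held 1 library, its spread was taken from the other groups. The simulated data were normal values around the mean log2(RPM + 1) of each gene, with its residual spread. They did not model read numbers or depth, so they do not test genes with few reads. P2rx4 and Adora3, with 34.0 to 174 reads per library, have the widest intervals of the 8.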
